A study of Sus scrofa with 36 samples.

Results

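Molecular chaperones bind unfolded or partly folded proteins and keep them from aggregating. HSP70 proteins do so in cycles of ATP binding and release, which J-domain proteins (DNAJA, DNAJB, DNAJC) start and HSP110 proteins reset. HSP90 completes many client proteins, small heat shock proteins hold unfolded clients without ATP, and the chaperonin rings (CCT in the cytosol, HSPD1 with HSPE1 in mitochondria) enclose them. Part of the family is kept at a steady level in neurons and glia, and part is switched on by the factor HSF1 when proteins are damaged by heat or other stress.

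The genes described here are those whose single annotated symbol starts with HSPA, HSPB, HSPD, HSPE, HSPH, HSP90, DNAJ or CCT and a digit, or equals TCP1. They number 51 of the 6765 genes that the array names by a single symbol. Where several probe sets name a gene, the probe set with the highest mean over all arrays stands for it, as was needed for 19 of the 51 genes. Of these, 50 passed the filter on dim probe sets. HSPB3, a muscle-enriched small heat shock protein, was left out of all tests at a mean log2 value of 3.72, against a limit of 4.92.

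Transcripts were measured on Affymetrix porcine arrays in the hippocampus of 36 male Landrace × Large White cross piglets at postnatal day 38, with 1 array per piglet. From day 3 all piglets drank a milk replacer, and the 3 feeding groups of 12 differed in lactoferrin, an iron-binding milk glycoprotein. The control replacer held only its basal lactoferrin, to which the medium-dose replacer added 0.6 g/L and the high-dose replacer 1.2 g/L. Each sample also has a set code from S1 to S5, which the labels leave unexplained. S1 contained 2 control, 0 medium-dose and 2 high-dose piglets. The counts in the same order were 2, 4 and 4 in S2, 3, 3 and 2 in S3, 3, 3 and 3 in S4, and 2, 2 and 1 in S5. The labels name no litters, so the spread between arrays may hold both animal and technical variation.

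All values are log2 RMA values rounded to 1 decimal, so a step of 0.1 is the smallest visible difference. Array medians lay between 6.6 and 6.7, and precision depends on how many arrays a group has. Brain cell markers were present on every array: the mean of 10 neuron markers lay between 9.95 and 11, that of 9 astrocyte markers between 10.7 and 11.1, and that of 13 oligodendrocyte and myelin markers between 9.35 and 10.6. High-dose replicate 2 had the lowest neuron mean, the highest oligodendrocyte mean and the lowest mean correlation with the other arrays (0.961, against a median of 0.984). Control replicates 10 (0.973) and 4 (0.976) came next in correlation. Counts of called members are therefore given with and without single arrays.

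Neither lactoferrin dose moved a chaperone gene past the threshold. In medium-dose against control hippocampi, 0 of 50 members passed limma's test at an adjusted p of 0.05, beside 0% of the 18006 probe sets tested. In high-dose against control hippocampi the count was again 0 of 50, beside 0% of all probe sets, and in high-dose against medium-dose hippocampi 0 of 50, beside 0%. The same held for members in each of the 36 fits that left out 1 array.

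At an unadjusted p of 0.05, 2 of 50 members were higher in medium-dose than in control hippocampi (beside 3.78% of all probe sets) and 0 were lower (beside 3.15%), with 6.93% in either direction. For high dose against control, 0 were higher (beside 2.77%) and 1 was lower (beside 2.17%), with 4.94% in either direction. For high against medium dose, 1 was higher (beside 2.48%) and 0 were lower (beside 3.49%), with 5.98% in either direction. These shares were close to those of all probe sets or below them. The members also split evenly by sign. The fitted difference was above 0 for 27, 27 and 24 of the 50 genes in medium minus control, high minus control and high minus medium dose, beside 50.3%, 49.7% and 50.3% of all probe sets. The median difference over members was 0.01, 0.01 and 0.00 on the log2 scale.

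The fitted differences were small as well as uncalled. Medium minus control ran from -0.17 (HSPA2) to 0.23 (HSPB6), and high minus control from -0.16 (DNAJC19) to 0.17 (HSPA6), both log2 differences. The median standard error was 0.07 and 0.06. The widest 95% bound of any member reached 0.39 for medium minus control and 0.44 for high minus control, so larger mean shifts lie outside these intervals for every tested member.

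**Figure D1:**
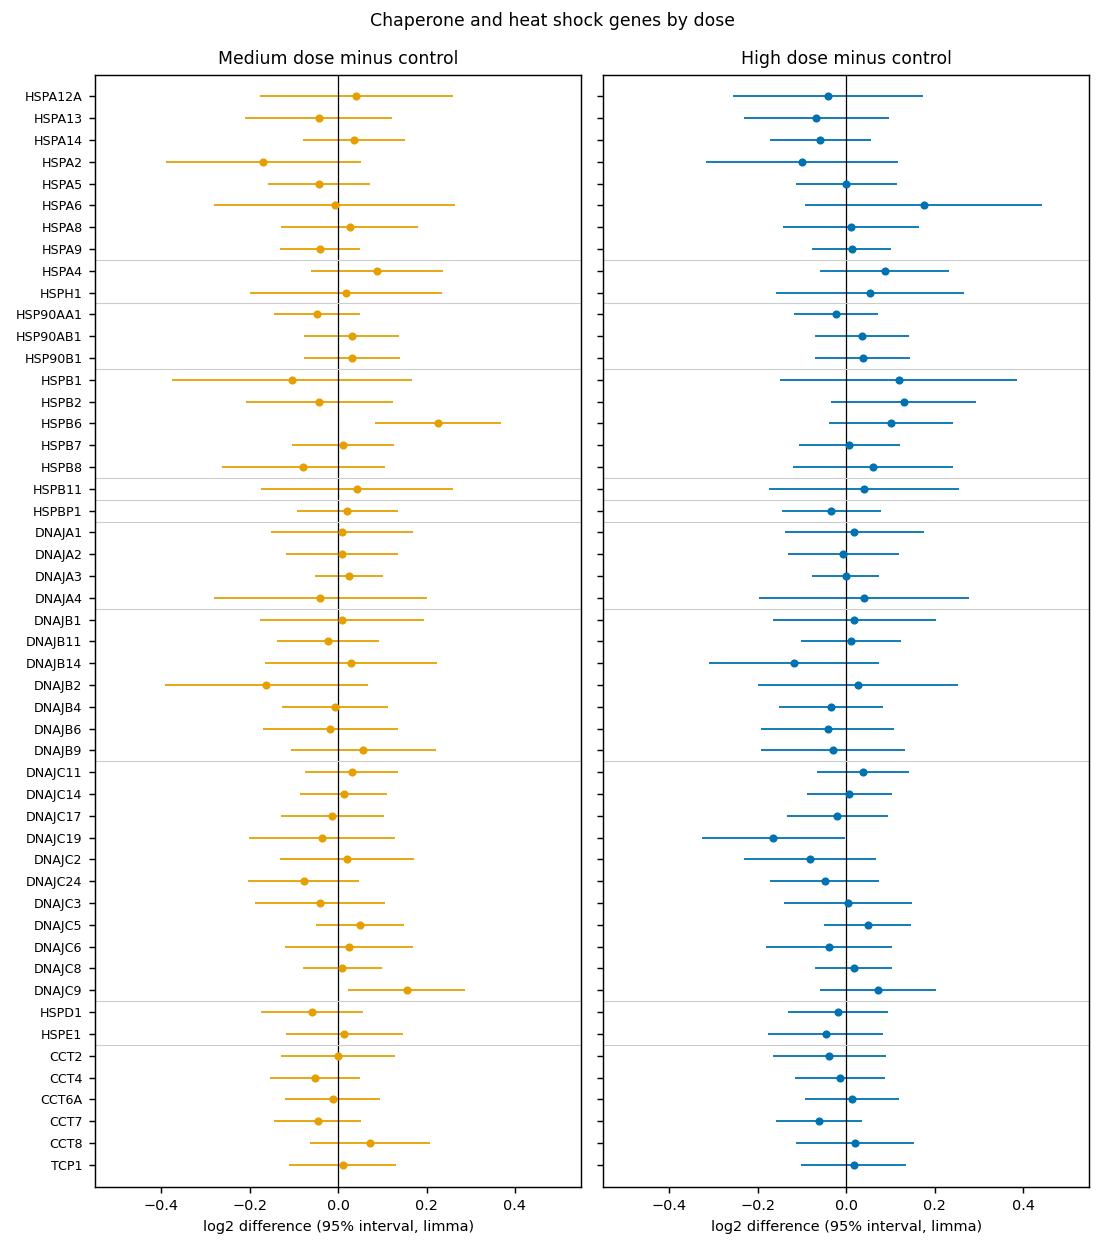
Fitted log2 difference (point) and 95% interval (line, limma) of 50 chaperone and heat shock genes, medium dose minus control on the left and high dose minus control on the right, with thin lines between families. Nearly all intervals cross 0, the exceptions being HSPB6 and DNAJC9 on the left and DNAJC19 on the right, none of which passed the adjusted threshold.

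Among the small heat shock proteins, HSPB6 (also called HSP20), which binds unfolded clients and is known from smooth muscle and heart, had the smallest p of all members. Its lowest, median and highest log2 values were 6.2, 6.5 and 6.7 in control, 6.3, 6.65 and 6.9 in medium-dose and 6.2, 6.55 and 6.8 in high-dose hippocampi. The 3 groups overlapped over most of their ranges. Medium dose exceeded control by 0.23 ± 0.07 (log2, SE; unadjusted p = 0.00275, adjusted p = 0.54, limma). High minus control was 0.10 ± 0.07 (adjusted p = 0.976). A second, dimmer HSPB6 probe set gave 0.06 for medium minus control (unadjusted p = 0.469), and it correlated with the first at only r = 0.305.

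HSPB2, a small heat shock protein expressed in muscle, ran from 7.5 over a median of 7.75 to 8.4 in high-dose hippocampi and from 7.6 over 7.7 to 7.8 in medium-dose hippocampi. In control hippocampi it ran from 7.5 over 7.7 to 8.2. The high-dose arrays reached further in both directions than the medium-dose arrays, and the groups overlapped. High minus medium dose was 0.17 ± 0.08 (log2, SE; unadjusted p = 0.0419, adjusted p = 0.811, limma). HSPB2 was also the only member whose dose difference varied between set codes at an unadjusted p of 0.05 (interaction F test over the 32 arrays of S2 to S5, p = 0.0231, adjusted p = 0.724), beside 6.49% of all probe sets. At the adjusted threshold the interaction passed 0 members and 0.0167% of all probe sets. Its highest array was high-dose replicate 2, at 8.4.

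HSPB1 (HSP27), the stress-induced small heat shock protein of astrocytes and vessels, ran from 8.1 over 8.7 to 9 in control, from 8.2 over 8.55 to 8.7 in medium-dose and from 8.3 over 8.55 to 10 in high-dose hippocampi. The value of 10 came from a single array, described below, and the other high-dose arrays lay within the range of the controls or 0.1 above it. High minus medium dose was 0.22 ± 0.13 (log2, SE; adjusted p = 0.811, limma), and 0.09 without that array. HSPB7, expressed in heart and muscle, and HSPB8 showed differences between -0.08 and 0.14 over the 3 contrasts. HSPB11, which carries the prefix but belongs to the intraflagellar transport machinery, differed by at most 0.04 between groups. High minus control was above 0 for all 5 small heat shock proteins tested, with a median of 0.10, beside 49.7% of all probe sets. Without the array just mentioned the median of these 5 was 0.0046, and HSPB1 was at -0.01. Medium minus control was above 0 for 2 of 5.

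The HSP70 family has 8 tested genes. HSPA8, the constitutive cytosolic HSP70 (HSC70), had medians of 12.65 in control, 12.6 in medium-dose and 12.65 in high-dose hippocampi, with a high minus control difference of 0.01 ± 0.08 (log2, SE). HSPA5 (BiP), its counterpart in the endoplasmic reticulum, and HSPA9 (mortalin), in mitochondria, differed by at most 0.04 from control at either dose. The steady HSP70 genes of all 3 compartments thus gave intervals of at most 0.18 on either side of 0. The 3 dimmer HSPA8 probe sets did not follow the bright one (r between -0.129 and 0.00503). They were lower in medium-dose than in control hippocampi by -0.16 to -0.18 on the log2 scale (unadjusted p between 0.0149 and 0.0311), while the bright probe set gave 0.03.

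HSPA2, an HSP70 expressed in germ cells and brain, ran from 8.6 over 9.25 to 10 in control, from 8.7 over 9.15 to 9.3 in medium-dose and from 8.6 over 9.2 to 10 in high-dose hippocampi. Medium minus control was -0.17 ± 0.11 (log2, SE; adjusted p = 0.816, limma). The groups overlapped, with the values of 10 in control replicate 4 and high-dose replicate 2. HSPA14, a ribosome-associated HSP70, ran from 7 over 7.2 to 7.3 in high-dose and from 7.1 over 7.3 to 7.5 in medium-dose hippocampi, a difference of -0.10 ± 0.06 (adjusted p = 0.811). In control hippocampi it ran from 7 over 7.2 to 7.5.

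Both HSP110 genes, HSPH1 and HSPA4, which act as nucleotide exchange factors for HSP70, lay above 0 at either dose. HSPH1 ran from 11 over 11.45 to 11.9 in control, from 11.2 over 11.4 to 11.7 in medium-dose and from 10.9 over 11.45 to 12.4 in high-dose hippocampi. High minus control was 0.05 ± 0.10 (log2, SE; adjusted p = 0.986, limma), smaller than its error. HSPA4 ran from 9 over 9.4 to 9.6 in control, from 9.2 over 9.45 to 9.6 in medium-dose and from 9 over 9.4 to 9.8 in high-dose hippocampi, with differences from control of 0.09 ± 0.07 at both doses. The HSP90 genes (HSP90AA1, which is inducible, HSP90AB1, which is constitutive, and HSP90B1, in the endoplasmic reticulum) differed by at most 0.05 between groups.

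The J-domain proteins are the largest group, with 4 DNAJA, 7 DNAJB and 11 DNAJC genes tested. DNAJC9, a histone chaperone with a J domain, ran from 5.4 over 5.6 to 5.7 in medium-dose and from 5.2 over 5.45 to 5.7 in control hippocampi, and medium minus control was 0.15 ± 0.07 (log2, SE; unadjusted p = 0.0237, adjusted p = 0.663, limma). High-dose hippocampi ran from 5.3 over 5.5 to 6, the value of 6 in high-dose replicate 2. DNAJC19, a subunit of the mitochondrial import motor, ran from 8.5 over 8.8 to 9.1 in high-dose and from 8.7 over 8.95 to 9.2 in control hippocampi. Its high minus control difference was -0.16 ± 0.08 (unadjusted p = 0.0465, adjusted p = 0.976), and the groups overlapped from 8.7 to 9.1. Without high-dose replicate 9 it was -0.14 (unadjusted p = 0.0895).

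DNAJB2, a J-domain protein enriched in the nervous system that passes clients to the proteasome, ran from 9.4 over 9.7 to 10 in medium-dose and from 9.4 over 9.85 to 10.6 in control hippocampi (difference -0.16 ± 0.11 on the log2 scale, SE; adjusted p = 0.838, limma). In high-dose hippocampi it ran from 9.5 over 9.85 to 10.7. With the oligodendrocyte marker mean as a covariate the medium minus control difference was 0.02, of opposite sign. The spread within a group exceeded the difference between groups. DNAJC24, which takes part in diphthamide synthesis, ran from 5.9 over 6.2 to 6.6 in medium-dose and from 6 over 6.25 to 6.4 in control hippocampi (-0.08 ± 0.06, adjusted p = 0.86). DNAJC5 (cysteine string protein) and DNAJC6 (auxilin), the J-domain proteins of the synaptic vesicle cycle, differed from control by at most 0.05 at either dose.

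Both chaperonins were level across the groups. HSPD1 (HSP60) and its lid HSPE1 (HSP10) differed from control by at most 0.06, and TCP1 and 5 other subunits of the CCT ring, which folds actin and tubulin, by at most 0.07. Among ring subunits CCT7 had the smallest p for high dose against control, with values from 9.8 over 10.1 to 10.2 in high-dose and from 9.9 over 10.15 to 10.3 in control hippocampi. The difference was -0.06 ± 0.05 (log2, SE; adjusted p = 0.976, limma).

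Genes that work with these chaperones likewise gave no calls. In lists of 22 cochaperones and heat shock response genes, 14 folding genes of the endoplasmic reticulum, 9 genes of mitochondrial protein quality control and 12 prefoldin and chaperonin cofactors, 0 passed in any of the 3 dose contrasts. At an unadjusted p of 0.05, 0 of these genes differed between medium dose and control. BAG1, a nucleotide exchange factor of HSP70, was lower in high-dose than in control hippocampi by -0.10 (log2; unadjusted p = 0.0256, adjusted p = 0.976) and than in medium-dose hippocampi by -0.11 (p = 0.0173, adjusted p = 0.811). CRYAB (αB-crystallin), a small heat shock protein abundant in oligodendrocytes and a neighbour of HSPB2, was higher in high-dose than in medium-dose hippocampi by 0.36 (p = 0.0373, adjusted p = 0.811). Its highest values were 12.4 in high-dose replicate 2, the array with the highest oligodendrocyte mean, and 12 in high-dose replicate 12. PHB2, a mitochondrial prohibitin, was lower in high-dose than in medium-dose hippocampi by -0.12 (p = 0.0094, adjusted p = 0.811). SERPINH1 (HSP47), the collagen chaperone, was higher in high-dose than in control hippocampi by 0.14 (p = 0.0449, adjusted p = 0.976). These p-values come from limma over 18006 probe sets.

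A single array stood apart. High-dose replicate 9, from S4, carried the highest or joint highest value of 10 of the 50 members and lay over 2 SD above the mean in 7 of them. HSPA6, a strictly stress-induced HSP70 in humans, ran from 6 over 6.4 to 6.6 in control, from 6.1 over 6.3 to 6.6 in medium-dose and from 6.2 over 6.35 to 8.1 in high-dose hippocampi. It was 8.1 in this array and between 6 and 6.7 in the other 35. HSPB1 was 10 in this array and between 8.1 and 9.1 in the others, and DNAJA4, a heat-inducible J-domain protein, was 10 against 8.3 to 9.1. All 3 lay at least 0.9 above every other array, and against the median of the others the excess was 3.25-fold for HSPA6, 2.64-fold for HSPB1 and 2.3-fold for DNAJA4. A second, dimmer DNAJA4 probe set did not follow the one used (r = -0.147 over the 36 arrays).

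Further inducible genes followed with smaller steps. HSPH1 was 12.4 in this array and at most 11.9 in the others, HSPB8, which works with BAG3 in clearing misfolded proteins, 9.4 against at most 9.1, HSPA4 9.8 against at most 9.6, and HSP90AA1 13.7 against at most 13.6. DNAJB1 (HSP40), at 9, and DNAJA1, at 11.4, equalled the highest of the other arrays, as did TCP1 at 10.2. A pair of genes outside the rule stood higher still or as high. HSP70.2, a heat-inducible porcine HSP70 whose symbol has another spelling, was 12.2 against 8.5 to 9.9, a 7.46-fold excess over the median of the others, and BAG3 was 10 against 8.1 to 9.4.

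Not all members were high in the same array. HSPA8 was 12.6, the median of the other arrays, HSP90AB1 12.6 against a median of 12.5, and HSPA5 11.4, again the median. HSP90B1 was 11.4 against a median of 11.3, HSPE1 11.4 and CCT2 10.4 against medians of 11.4 and 10.5. HSPD1 was 11.3 against a median of 11.1, and DNAJB11, a J-domain protein of the endoplasmic reticulum, was 8.4 against a median of 8.1, each with only 1 array above it. HSPA2 (8.6) and DNAJC19 (8.5) had the lowest or joint lowest value. The array thus held chaperones above, within and at the bottom of the range of the others.

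Its mean correlation with the others was 0.982, and its labelling spike-in was present. Of all 18006 probe sets, the largest steps above every other array were those of the 3 probe sets of HSP70.2 (1.6 to 2.3) and of HSPA6 (1.4), followed by HSPB1, DNAJA4 and AMHR2, the receptor of anti-Müllerian hormone, at 0.9 each. It had 17 probe sets at least 0.5 above every other array, while the median over arrays was 2 and the highest count 134. MT1A, a metallothionein induced by metals and glucocorticoids, was also highest there, at 9.8 against 8 to 9.1, while the mean of 6 glucocorticoid-responsive genes was 8.98 in a range over arrays of 8.63 to 9.5. The mean of 6 immediate early genes was 8.1 in a range of 7.55 to 8.7. The part of these in the chaperone values was not tested. The probe sequences were not used here, so sharing of signal between HSP70.2 and HSPA6 was not tested.

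**Figure D2:**
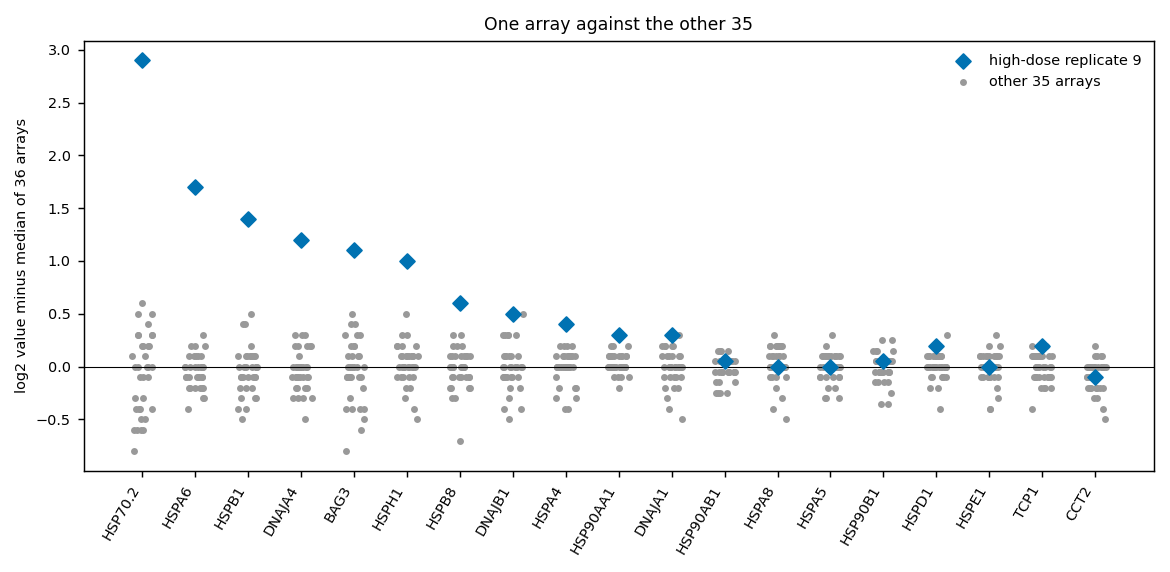
Log2 value minus the median of 36 arrays for 17 members and the non-members HSP70.2 and BAG3, with high-dose replicate 9 as blue diamonds and the other 35 arrays as grey points spread sideways at random. The diamonds stand above all grey points for HSP70.2, HSPA6, HSPB1, DNAJA4, BAG3, HSPH1, HSPB8, HSPA4 and HSP90AA1, meet the highest grey points for DNAJB1, DNAJA1 and TCP1, and lie among them for the others.

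This array raised the high-dose means of HSPA6, HSPB1, HSPH1 and DNAJA4, in which it was the highest array. Other inducible genes moved less: the high-dose mean of HSP90AA1 was 13.44 with it and 13.42 without it, that of DNAJB1 8.54 and 8.5. The high-dose SD of HSPA6 was 0.523 with it and 0.157 without it, and that of HSPB1 0.481 and 0.264. High minus control was 0.17 for HSPA6 and 0.02 without the array, 0.12 and -0.01 for HSPB1, 0.05 and -0.03 for HSPH1, and 0.04 and -0.07 for DNAJA4, all log2 differences. The signs of HSPB1, HSPH1 and DNAJA4 thus turned, and HSP70.2 likewise gave 0.20 and -0.04. The differences whose sign turned were smaller than their standard errors with and without the array. None of these genes passed with or without it.

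Other arrays stood out in the opposite direction or over more members. Control replicate 10 was lowest or joint lowest in 16 members and over 2 SD below the mean in 13, and its mean correlation with the other arrays was 0.973. High-dose replicate 7 was lowest in 10 and medium-dose replicate 1 in 9. Medium-dose replicate 12 was highest in 15 members and control replicate 3 in 12. These 5 arrays come from all 3 feeding groups. The share of all probe sets at the extreme of each array was not computed. These counts, and those of high-dose replicate 9 above, therefore do not set chaperones apart from other genes.

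**Figure D3:**
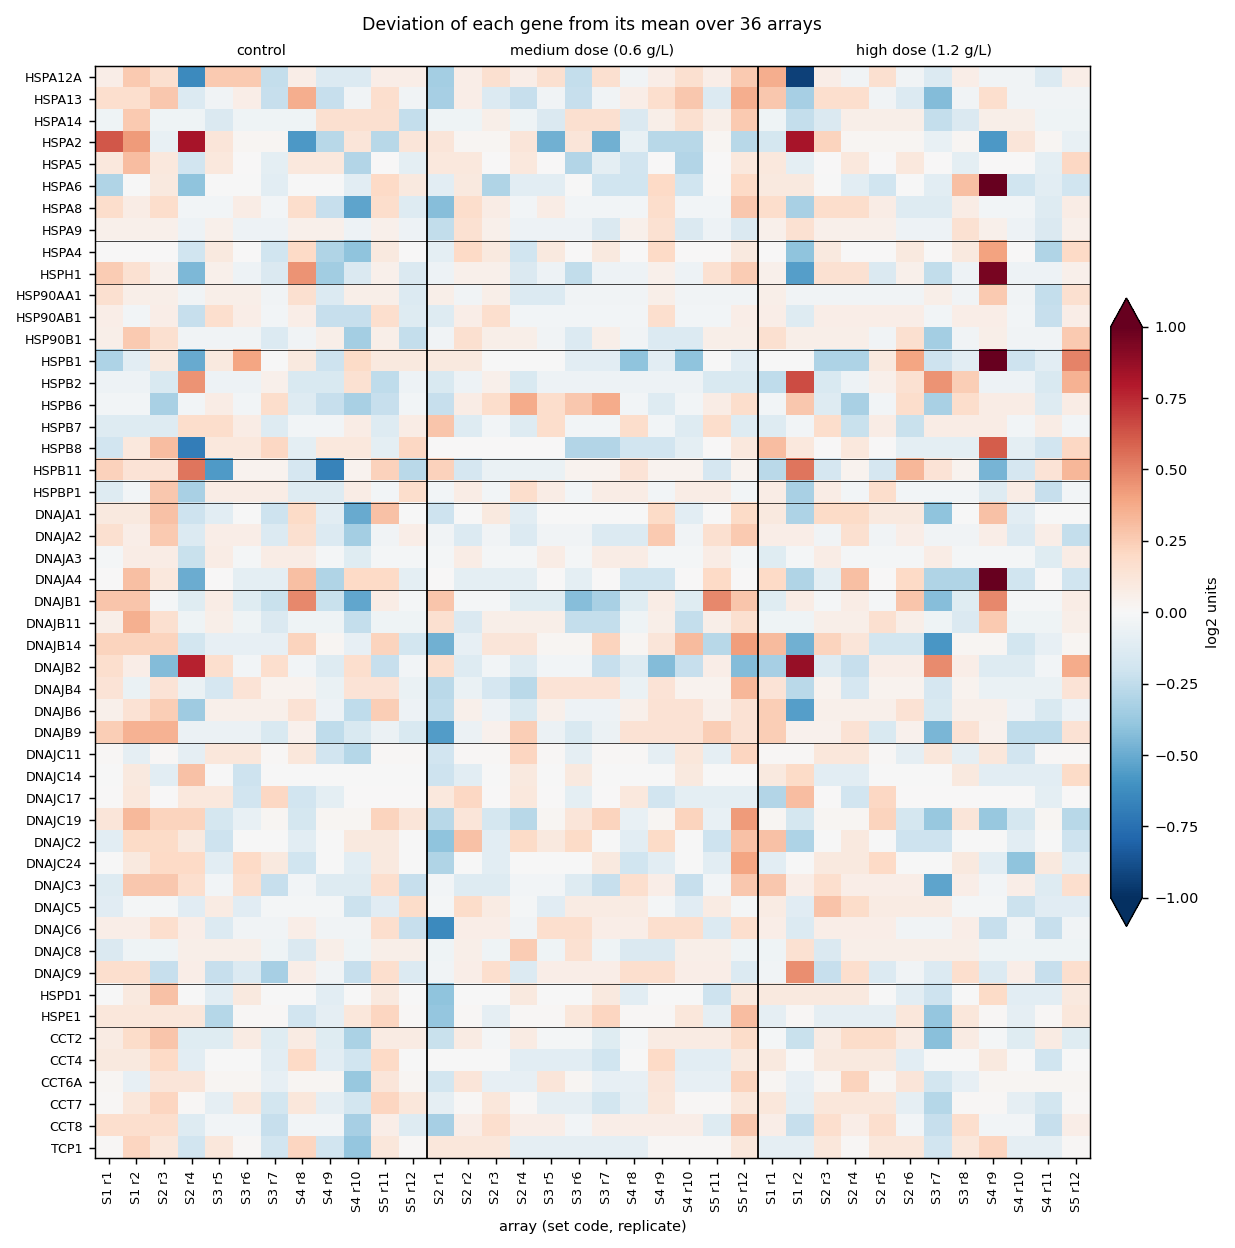
Deviation of 50 members (rows, by family) from their mean over 36 arrays (columns, ordered by group, set code and replicate), in log2 units with the colour scale ending at 1. The dark red cells of high-dose S4 r9 mark HSPA6, HSPH1, HSPB1 and DNAJA4, and the blue columns are control S4 r10, medium-dose S2 r1 and high-dose S3 r7.

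The values of some members varied with those of HSPH1 across arrays. Of 49 other members, 16 were related to HSPH1 (Pearson r, 100000 permutations, adjusted over 18005 probe sets), 14 positively and 2 negatively. The positive ones span the cytosol (DNAJA4, HSPA4, DNAJA1, DNAJB1, HSPA6, HSPB1, DNAJB6, HSP90AA1, HSP90AB1, HSPA12A, TCP1, CCT4) and the endoplasmic reticulum (HSPA13, DNAJB11). That compares with 13.1% of all probe sets, 8.01% positive and 5.04% negative. Each gene stands here by the probe set used, and the other HSP90AA1 probe sets correlated with that one at r between -0.0566 and 0.625. The median r with HSPH1 was 0.315 over members and -0.03 over all probe sets. Without the 2 arrays farthest from the HSPH1 median (high-dose replicates 9 and 2), 19 were called, beside 16.6%, of which 18 were positive, beside 8.99%. Of these, 12 were also called over all 36 arrays. The spike-in control Dap was missing from 10 arrays, and over the 26 others 7 members were called, beside 3.66%.

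DNAJA4 followed HSPH1 most closely (r = 0.819, permutation p = 1e-05, adjusted p = 0.00118, n = 36, and Spearman rho = 0.625, permutation p = 3e-05). Without the 2 arrays r was 0.644, and within S2, S3 and S4 it was 0.754, 0.482 and 0.903. Its values ran from 8.3 over 8.8 to 9.1 in control, from 8.6 over 8.75 to 9 in medium-dose and from 8.5 over 8.75 to 10 in high-dose hippocampi. HSPA4 came next (r = 0.722, permutation p = 1e-05, adjusted p = 0.00118, rho = 0.654, permutation p = 1e-05), with 0.584 without the 2 arrays. The value of 1e-05 is the smallest that 100000 permutations can give. Both relations remained positive within the 3 set codes of 8 or more arrays. They are those of the probe set used for each gene. The second DNAJA4 probe set did not follow the one used (r = -0.147), and the brighter of the other HSPA4 probe sets did so weakly (r = 0.383).

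DNAJA1, DNAJB1, TCP1 and HSPA13 had r between 0.636 and 0.667 (adjusted permutation p between 0.00164 and 0.00394) and rho between 0.705 and 0.764 (permutation p = 1e-05 each). DNAJA1 ran from 10.6 over 11.1 to 11.4 in control, from 10.9 over 11.1 to 11.3 in medium-dose and from 10.7 over 11.15 to 11.4 in high-dose hippocampi. DNAJB1, the main HSF1-induced partner of HSP70, ran from 8 over 8.5 to 9 in control, from 8.1 over 8.45 to 9 in medium-dose and from 8.1 over 8.5 to 9 in high-dose hippocampi. Group ranges of both nearly coincided, so this variation ran within the feeding groups. TCP1, a subunit of the CCT ring, ran from 9.6 over 10 to 10.2 in control, from 9.9 over 10 to 10.1 in medium-dose and from 9.8 over 10 to 10.2 in high-dose hippocampi. HSPA13, a little-studied HSP70 of the endoplasmic reticulum, ran from 9.3 over 9.55 to 9.9, from 9.2 over 9.5 to 9.9 and from 9.1 over 9.5 to 9.8 in the same groups. Without the 2 arrays r was 0.631 for DNAJA1, 0.737 for DNAJB1, 0.672 for TCP1 and 0.692 for HSPA13. A second DNAJA1 probe set, with a mean of 9.11, did not follow the one used (r = -0.28), while a dimmer HSPA13 probe set did (r = 0.65).

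Some relations depended more on single arrays. HSPA6 had r = 0.63 with HSPH1 (permutation p = 0.00477, adjusted p = 0.042) but rho = 0.272 (permutation p = 0.109). Its r was 0.273 without the 2 arrays and 0.164 without high-dose replicate 9 alone, on which it rested. Within S2, which does not hold that array, r was 0.675. Control replicate 4 was the lowest S2 array in both HSPA6 (6) and HSPH1 (11), and the S2 value without it was not computed. HSPB1 had r = 0.552 (permutation p = 0.00591, adjusted p = 0.0474) but rho = 0.149 (permutation p = 0.384), and 0.178 without the 2 arrays. It was 0.145 without high-dose replicate 9 alone. The negative relation of HSPA2 (r = -0.492, permutation p = 0.00311, adjusted p = 0.033, rho = -0.269, permutation p = 0.115) was -0.247 without the 2 arrays and no longer called. Within S2, which holds neither, it was -0.771. Control replicate 4, however, was the highest S2 array in HSPA2 (10) and the lowest in HSPH1 (11). On residuals from group and set code the HSPA2 relation was -0.571 (adjusted permutation p = 0.00444). DNAJC8, a splicing-associated J-domain protein, was negative with and without the 2 arrays (r = -0.48, adjusted permutation p = 0.0356, rho = -0.506, permutation p = 0.00182, and -0.502 without them).

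**Figure D4:**
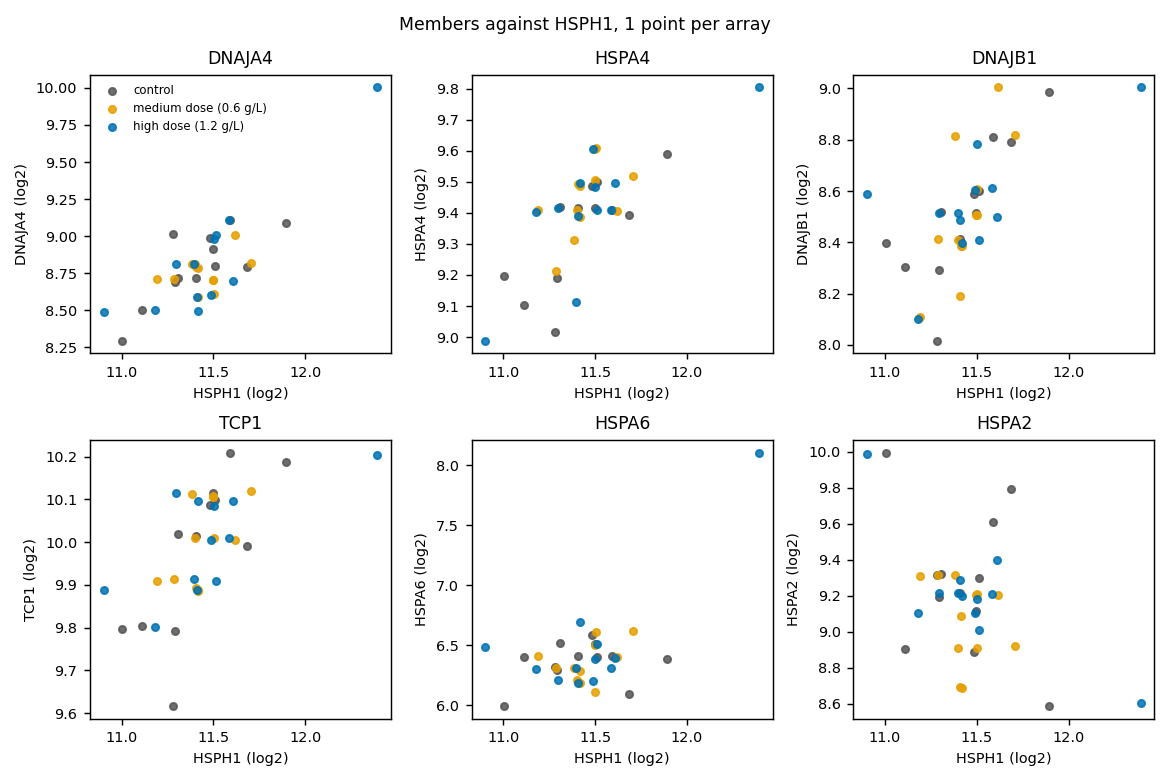
Log2 values of 6 members against HSPH1 in 36 arrays, coloured by feeding group, each point moved at random by up to 0.02 on both axes since many arrays share a value. DNAJA4, HSPA4, DNAJB1 and TCP1 climb with HSPH1 over the bulk of arrays, while the relation of HSPA6 rests on the point at the upper right (high-dose replicate 9) and that of HSPA2 runs downward.

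Outside the members, the named genes whose pattern over the 36 arrays was most like that of HSPH1 by Pearson r were GNB5 (0.84), ST6GALNAC5 (0.818), BAG3 (0.807), CELF2 (0.805) and FBXW7 (0.791), followed by ARID4A, DCLK1, UTP18, RHBDD2 and WASL between 0.779 and 0.787. These are given as a description. By Pearson r no cell type or quality measure was related to HSPH1 past the threshold over the 10 measures compared, the smallest adjusted permutation p being 0.0507. The p-values of rho were not adjusted over these measures. The mean of 6 immediate early genes had r = 0.483 (permutation p = 0.00588, adjusted p = 0.0507, rho = 0.507, permutation p = 0.00203), and 0.467 without the 2 arrays. The neuron mean had r = 0.384 (permutation p = 0.0303, adjusted p = 0.0756, rho = 0.316, permutation p = 0.0602), and 0.419 without the same 2 arrays, with 0.696, 0.881 and 0.21 within S2, S3 and S4. The array means compared here had been rounded. With the unrounded neuron mean r was 0.362 (permutation p = 0.0373), and 0.643, 0.774 and 0.138 within S2, S3 and S4. Without high-dose replicate 2 and control replicate 4, the arrays farthest from the neuron median, it was 0.0321 (permutation p = 0.858). The oligodendrocyte mean had r = -0.431 (permutation p = 0.0152, adjusted p = 0.0507, rho = -0.273, permutation p = 0.107). The hybridisation control bioB had r = -0.44 (permutation p = 0.0126, adjusted p = 0.0507, rho = -0.485, permutation p = 0.0028). Without high-dose replicates 9 and 2 these r were -0.306 and -0.31. The part of these measures in the relations with HSPH1 was not tested.

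Members of 1 compartment varied together to different degrees. The median r over pairs was 0.614 within the CCT ring (15 pairs), 0.49 among 6 genes of the endoplasmic reticulum (15 pairs) and 0.448 among 11 cytosolic genes of the heat shock group, from HSPH1 and DNAJB1 to HSPB1 and HSPB8 (55 pairs). Among 6 mitochondrial genes it was 0.0242, beside 0.153 over all 1225 pairs of members. Without high-dose replicates 9 and 2 the cytosolic value was 0.298, that of the ring 0.61 and that of the endoplasmic reticulum 0.518. These 2 arrays are the farthest from the median of HSPH1, not of the ring genes. Control replicate 10, lowest in CCT6A and TCP1, and high-dose replicate 7, lowest in CCT2 and CCT7, stayed in. The ring value without those was not computed. These medians are descriptions, since all pairs share the same arrays.

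Of 8 pairs computed, adjusted over the 8, HSPA5 and its J-domain partner DNAJB11 had r = 0.717 (permutation p = 1e-05, adjusted p = 4e-05, rho = 0.639, permutation p = 7e-05, n = 36). Without the 2 arrays farthest in HSPA5, r was 0.613. HSPD1 and HSPE1, which lie next to each other in the pig genome (Sscrofa11.1), had r = 0.599 (permutation p = 0.00019, adjusted p = 0.000253, rho = 0.437, permutation p = 0.00814), and 0.472 without 2 arrays. HSPB2 and its neighbour CRYAB had r = 0.744 (permutation p = 1e-05, adjusted p = 4e-05, rho = 0.564, permutation p = 0.00047), and 0.592 without 2 arrays. HSPB1 and HSPB8 had r = 0.656 (permutation p = 0.00013, adjusted p = 0.000208, rho = 0.517, permutation p = 0.00148), and 0.39 without 2 arrays, 1 of them high-dose replicate 9. Within S2, S3 and S4 these 4 pairs were positive, from 0.206 (HSPD1 with HSPE1 in S4) to 0.896 (HSPB1 with HSPB8 in S4). HSPA5 with HSP90B1, HSPH1 with HSP90AA1 and TCP1 with CCT4 had r between 0.585 and 0.676 (adjusted permutation p between 5.33e-05 and 0.000297). Within set codes these were less even: HSPH1 with HSP90AA1 gave 0.252, 0 and 0.806 within S2, S3 and S4, HSPA5 with HSP90B1 gave 0.563, 0.0503 and 0.696, and TCP1 with CCT4 0.52, 0.465 and 0.756. The last pair, HSPB2 with HSPB6, had r = 0.147 (adjusted permutation p = 0.407).

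Some members, like many other probe sets, followed the level of oligodendrocyte or neuron transcripts. In bulk tissue, fewer cells of a type and less RNA per cell cannot be told apart. Of 50 members, 16 were related to the mean of 13 oligodendrocyte and myelin genes (permutation p adjusted over 18006 probe sets), 6 positively (beside 13.4%) and 10 negatively (beside 14.7%), with 28% of all probe sets in either direction. This count was near the share of all probe sets and does not set chaperones apart from other genes. DNAJB2 was the closest (r = 0.891, permutation p = 1e-05, adjusted p = 0.000203, rho = 0.794, permutation p = 1e-05), followed, with the same permutation p for r, by HSPB2 (r = 0.784, rho = 0.583, permutation p = 0.0003) and HSPA2 (r = 0.75, rho = 0.559, permutation p = 0.00057). Without high-dose replicate 2 and control replicate 4, the 2 arrays farthest from the median, r was 0.775, 0.571 and 0.552, and 5 members were called, these 3 among them, beside 7.19% of all probe sets. The negative relation of HSPA12A (r = -0.657, permutation p = 0.00023, adjusted p = 0.00204, rho = -0.296, permutation p = 0.0802) rested on the 2 arrays, at -0.186 without them. Within S2, which holds control replicate 4, and within S3 and S4 the 3 genes stayed between 0.531 and 0.916.

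With the mean of 10 neuron genes, 19 of 50 members were related, 15 positively (beside 15.3%) and 4 negatively (beside 13%), with 28.2% of all probe sets in either direction, and 10 without the same 2 arrays, beside 13.4%. HSPA12A, a distant HSP70 relative abundant in brain, had r = 0.854 (permutation p = 1e-05, adjusted p = 0.000241, rho = 0.723, permutation p = 1e-05), and DNAJB6, which suppresses polyglutamine aggregation, r = 0.82 (same permutation p, rho = 0.67, permutation p = 3e-05). HSPA8 (r = 0.699, permutation p = 2e-05, adjusted p = 0.000385, rho = 0.667, permutation p = 1e-05) and HSP90AB1 (r = 0.674, permutation p = 4e-05, adjusted p = 0.000639, rho = 0.669, permutation p = 2e-05), the constitutive cytosolic pair, followed. Without the 2 arrays these 4 were 0.683, 0.655, 0.736 and 0.682. They hold for the probe sets used. A second DNAJB6 probe set followed the one used (r = 0.776), while the dimmest ones ran against it (r = -0.533 and -0.267). The dimmer HSPA8 probe sets did not follow theirs, as given above. DNAJB2 was negative against the neuron mean (r = -0.721, adjusted permutation p = 0.000241, rho = -0.621, permutation p = 9e-05, and -0.467 without the 2 arrays).

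No member passed the test between set codes. The F test for any difference between set codes passed 0 of 50 members, beside 2.62% of all probe sets, a count of 472 that was 134 without control replicate 1 and 58 without S1. At an unadjusted p of 0.05 it took in 4 of 50, beside 17.4%. HSPA2 came closest (F = 4.69, p = 0.00405, adjusted p = 0.0883, limma). Its means over S1 to S5, in that order, were 9.6, 9.31, 9.09, 8.98 and 9.08, with a range of 9 to 10 in S1 and 8.6 to 9.3 in S4, so the codes overlapped. Without high-dose replicate 1 its adjusted p was 0.0202, and with the oligodendrocyte mean as a covariate 0.034.

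The next were HSP90B1, CCT7 and DNAJB1, each lowest on average in S3. HSP90B1 (GRP94), the HSP90 of the endoplasmic reticulum, averaged 11.475, 11.4, 11.25, 11.27 and 11.38 over S1 to S5 (adjusted p = 0.183, limma). CCT7 averaged 10.125, 10.14, 9.99, 10.04 and 10.18 (adjusted p = 0.189). DNAJB1 averaged 8.65, 8.55, 8.31, 8.52 and 8.7 (adjusted p = 0.23). The set means of these 3 genes differed by less than 0.4. Between feeding groups HSP90B1 ran from 11 over 11.3 to 11.6 in control, from 11.2 over 11.35 to 11.5 in medium-dose and from 11 over 11.4 to 11.6 in high-dose hippocampi.

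DNAJB9 and DNAJB11, J-domain proteins of the endoplasmic reticulum, had adjusted p-values of 0.333 and 0.422 and were also lowest on average in S3 (7.65 and 8.05) and highest in S1 (7.975 and 8.225). DNAJB9 ran from 7.5 over 7.7 to 8.1 in control, from 7.2 over 7.85 to 8 in medium-dose and from 7.3 over 7.8 to 8 in high-dose hippocampi, and DNAJB11 from 7.9 over 8.1 to 8.5, from 7.9 over 8.2 to 8.3 and from 8 over 8.15 to 8.4. The dimmest of the 3 DNAJB9 probe sets passed the set code test (adjusted p = 0.0474). In the lists of partner genes 2 passed, a share near the 2.62% of all probe sets: XBP1, the transcription factor of the unfolded protein response (adjusted p = 0.0434), and PHB2 (adjusted p = 0.0292). XBP1 averaged 9.475, 9.29, 9.125, 9.23 and 9.34 over S1 to S5, and its ranges in S1 (9.3 to 9.6) and S3 (9 to 9.3) met only at 9.3. What the set codes stand for was not tested.

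**Figure D5:**
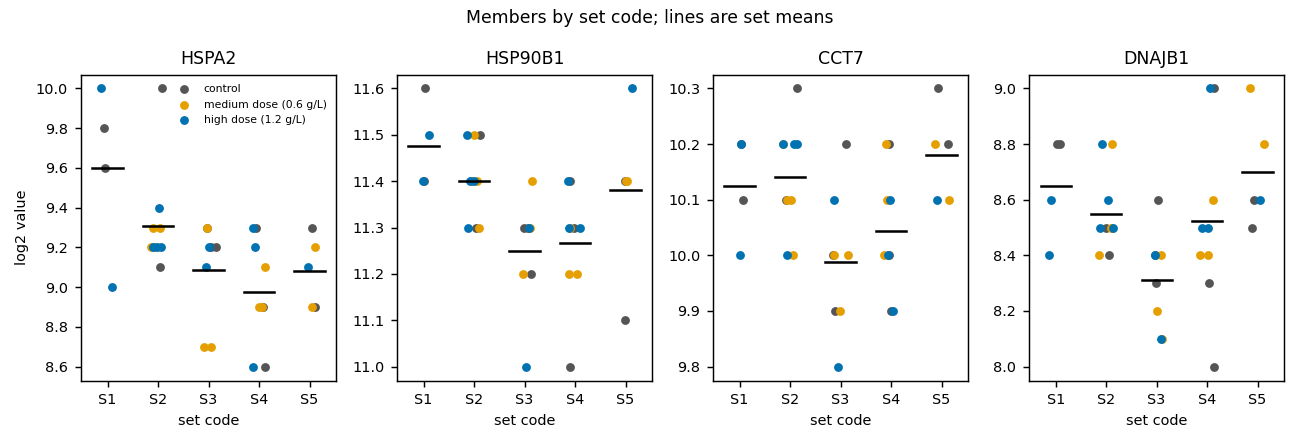
Log2 values of HSPA2, HSP90B1, CCT7 and DNAJB1 by set code, 1 point per array coloured by feeding group and spread sideways at random, with set means as black lines. HSPA2 is highest in S1 and the other 3 are lowest in S3, with overlap between codes.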

How the data were processed

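Hippocampal RNA of 36 piglets, 12 per feeding group, was hybridised to 1 Affymetrix porcine array each. The deposited values are log2 expression per probe set, which the authors made by RMA (background correction, quantile normalisation and summary of the probes of a set), per the submitters' processing notes, and the files hold them to 1 decimal. These notes name Expression Console 1.1 from Affymetrix. Quantile normalisation gives all arrays a like distribution, so a shift shared by all genes cannot be seen. Probe sets were named from the array annotation, which gives exactly 1 symbol to 10069 of 23999 probe sets besides 124 controls. Of the 51 members, 50 matched the RefSeq table (Sscrofa11.1) by gene ID.

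Dim probe sets, those whose mean over arrays fell under the 25th percentile, were left out. The other 18006 were fitted in R 4.3.3 with limma 3.58.1 (lmFit and eBayes), with the feeding group and the set code as fixed terms, and adjusted by Benjamini-Hochberg over all of them at 0.05. The interaction used 32 arrays. Relations across arrays used 100000 permutations, two-sided, in Python 3.11.15 with numpy 2.4.6, adjusted over all probe sets; the design had set out to adjust over members. Figures used matplotlib 3.10.9. The fits were tested on simulated data. Dap was counted as present above a log2 value of 6.

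The members, the lists, the tests and the rule for named genes were chosen with earlier results of these data known. The rule gives in full the 5 members with the smallest p in each dose contrast, the 8 with the smallest p between set codes, the 4 with the largest SD, and HSPH1 with the 6 members closest to it. Genes named for high-dose replicate 9, other probe sets and marker relations were chosen after their values were seen. Sequences were not used here.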

Additional observations from a re-analysis of the deposited data

Results flagged for a closer look

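Within set codes, the lowest and highest array of 21 members named above were compared with the other arrays of the code by Dixon's ratio, in 105 groups of 4 to 10 arrays. Of these, 18 exceeded the critical value, which chance gives in about 1 in 20 for genes chosen beforehand. The members were named from these same data, some for their large SD, and they share the arrays. The count can therefore not be compared with that rate. The feeding groups, of 12 each, were not compared in this way. Since values step by 0.1, small gaps can pass.

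In S4, high-dose replicate 9 was set apart above the others for HSPA6 (8.1), HSPB1 (10) and DNAJA4 (10). Control replicate 10 of the same code was set apart below the others for HSP90B1 (11) and DNAJA1 (10.6), and set apart above them for HSPB2 (7.9). In S2, control replicate 4 was set apart above the others for HSPA2 (10), DNAJB2 (10.6) and HSPB2 (8.2), and set apart below them for HSPH1 (11) and DNAJA4 (8.3). Its oligodendrocyte mean was 10.4 and its neuron mean 10.3. The part of either in these values was not tested.

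In S1, high-dose replicate 2 was set apart above the other 3 arrays for HSPB6 (6.8) and set apart below them for HSPA4 (9.0), DNAJA1 (10.8) and HSPA13 (9.2). In S3, high-dose replicate 8 was set apart above the others for HSPA6 (6.7) and control replicate 7 set apart below them for HSPA4 (9.2). In S2, high-dose replicate 3 was lowest for HSPA14 (7.1), only a single step of 0.1 below the nearest array.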

How the results depend on the processing

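Over 283 combinations of a dose contrast or F test with another setting or a left-out array, the count of called members stayed at its value in 281. The exceptions were 1 member, HSPA2, in the set code test without high-dose replicate 1 and with the oligodendrocyte mean as a covariate. For members in the 3 dose contrasts the count was 0 throughout. In the contrasts for which members are named by p, the sign turned in 2 of 849 fits, DNAJC24 for medium minus control without S2 (0.0073) and DNAJB2 for the same contrast with the oligodendrocyte covariate (0.0208); both stayed uncalled, and the cause was not tested. The signs of HSPB1, HSPH1 and DNAJA4 for high minus control, which turned without high-dose replicate 9, are given above.

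Counts over all probe sets moved more, for causes not tested. Medium minus control gave 11 with these 2 groups alone and 4 without S1, and high minus medium dose 1 with array weights. The set code test, 472 as reported, gave 841 with array weights, 804 with the oligodendrocyte covariate, 58, 196 and 79 without S1, S3 and S4, 82 with 1 probe set per gene and 90 with the mean of a gene's probe sets, where fewer rows were tested. Leaving out each array in turn gave 134 to 759 for set codes (134, 207 and 300 without control replicates 1, 2 and 11, 305 and 271 without medium-dose replicates 11 and 12, 307 and 260 without high-dose replicates 7 and 11, and 759 without control replicate 12) and 0 to 1 for members there. It gave 0 to 1 for medium minus control, for high minus medium dose and for any difference between feeding groups, over all probe sets (the single calls without medium-dose replicate 12 and, for the other two, replicate 11).

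Of relations with HSPH1, 26 members were called on residuals from group and set code (beside 24.9% of all probe sets), 22 by Spearman (18.9%), 23 without high-dose replicate 9 (24%), 20 without 3 arrays (19.9%) and 7 within the Dap arrays (3.66%), against 16 (13.1%). Members related to the oligodendrocyte mean numbered 5 (beside 7.19% of all probe sets) and to the neuron mean 10 (beside 13.4%) without 2 arrays. Alternatives without high-dose replicate 9, with the spike-in block or by Dap, and those on marker means were added after seeing the data.

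Replicate numbers are shared between groups. Same-numbered arrays of different groups correlated in their deviations from the group mean by -0.45 to 0.31 (median 0.00), above 0.1 in 8 of 36 pairs, and in 4 of 36 an array correlated best with its own number. The numbers were therefore not taken as pairs. With the replicate block, in place of the set code or with it, 0 members and 0 probe sets passed in each dose contrast, and the replicate block changed no call.

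Rounding to 1 decimal limits differences under 0.1, probe levels cannot be compared between genes, and S1 holds no medium-dose array.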
